A study of Mus musculus with 2 samples.

Results

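The serum amyloid A genes Saa1, Saa2 and Saa3 were described in single cells of mouse dorsal skin, in 1 library from skin treated with imiquimod (IMQ) and 1 library from control skin. They are 3 of the 27998 genes in the count files and 3 of the 4 Saa genes listed there, and they were chosen by name because earlier results on these libraries had shown them to be high after IMQ. Their levels are therefore given as a description, with no test. The IMQ library came from dorsal skin of wild-type C57BL/6 mice, female and 2 months old, that had received topical imiquimod each day for 5 days. The control library came from mice of the same strain, genotype, sex and age. Both skins were digested with collagenase D and DNase1 and freed of dead cells before droplet-based 3′ sequencing. The number of animals behind each library is not given in the sources used here, and with 1 library per group every difference is a difference between these libraries.

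Serum amyloid A proteins are small apolipoproteins of the acute-phase response. In mice the liver secretes SAA1 and SAA2 into the blood, where they ride on high-density lipoprotein, when interleukin-6, interleukin-1 and tumour necrosis factor rise. SAA3 is made mainly outside the liver in mice, among other places in adipose tissue and activated macrophages. The proteins attract neutrophils and monocytes through the formyl peptide receptor FPR2 and can signal through Toll-like receptors, and C/EBP, NF-kB and STAT3 are the transcription factors best known to act on the genes. Imiquimod is a Toll-like receptor agonist whose cream causes a psoriasis-like dermatitis in mice.

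The genes lie together on chromosome 7. In GENCODE M21 on GRCm38, the build named mm10 in the submitters' processing notes, Saa3 (ENSMUSG00000040026) spans 46711998 to 46715700 on the minus strand and Saa1 (ENSMUSG00000074115) spans 46740497 to 46742980, also on the minus strand. Saa2 (ENSMUSG00000057465) spans 46751790 to 46754313 on the plus strand, so Saa1 and Saa2 point away from each other across 8809 bases. Saa4, the remaining gene of the family in the files, lies between Saa3 and Saa1, and the whole cluster covers 42316 bases. The stretches from 250 to 51 bases before each RefSeq start (GRCm38.p6, all 3 matched by symbol) are shown because the genes moved together while Saa1 and Saa2 parted in 1 kind of cell. Capitals mark matches, on either strand, to the motif letters of C/EBP (TTNNGNAA), NF-kB (GG, any 3 bases, TT, any base, CC) or STAT (TTCNNNGAA).
Saa1 (chr7:46743031-46743230, minus strand): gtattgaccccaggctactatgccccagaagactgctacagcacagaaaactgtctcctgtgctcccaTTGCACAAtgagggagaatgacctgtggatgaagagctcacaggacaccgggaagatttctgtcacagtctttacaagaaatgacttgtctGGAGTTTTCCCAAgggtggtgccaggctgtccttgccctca
Saa2 (chr7:46751583-46751782, plus strand): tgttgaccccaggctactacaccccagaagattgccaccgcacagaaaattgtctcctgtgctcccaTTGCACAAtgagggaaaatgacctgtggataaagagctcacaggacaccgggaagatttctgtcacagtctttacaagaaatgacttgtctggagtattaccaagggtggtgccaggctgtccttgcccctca
Saa3 (chr7:46715727-46715926, minus strand): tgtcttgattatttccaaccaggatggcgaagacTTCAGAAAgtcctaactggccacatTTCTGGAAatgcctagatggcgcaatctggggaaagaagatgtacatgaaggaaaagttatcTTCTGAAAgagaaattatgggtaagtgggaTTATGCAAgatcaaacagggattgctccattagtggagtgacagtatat
The Saa1 and Saa2 windows were 93.5% identical and share the C/EBP match TTGCACAA. The NF-kB letters were found only in the Saa1 window among the 3, from 91 to 82 bases before the start, where they overlap a C/EBP match from 86 to 79. The Saa3 window had 4 C/EBP matches and was 52.5% identical to that of Saa1. STAT letters were found in none of the 3 windows. Of 27025 promoter windows of the same length, 32.4% held the C/EBP letters, 10.1% the NF-kB letters and 5.89% the STAT letters, so a match by itself is common and is given as a description of sequence.

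The transcripts of Saa1 and Saa2 were 93.9% identical, while Saa1 and Saa3 were 64.3% identical. A read from a near-identical pair can be hard to place, and how the authors' counting treated such reads is not given in the sources used here. Of the 251 windows of 50 bases in the last 300 bases of Saa1, 24 (9.56%) occurred unchanged in Saa2, and 0 of 211 windows of 90 bases did. None of the Saa3 windows occurred in Saa1 or Saa2 at either length. Values for Saa1 and Saa2 are therefore less certain than those for Saa3.

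The IMQ library held 9414 barcodes and 144054978 UMIs (unique molecular identifiers, each standing for 1 captured transcript), and the control library held 10857 barcodes and 123088680 UMIs. Cells with at least 200 genes and at most 10% mitochondrial UMIs were kept, which left 8499 IMQ cells and 10297 control cells with medians of 12650 and 9596 UMIs. Only 20 of the kept barcodes occurred in both libraries. Cells were sorted into 20 lineages by the summed scores of marker genes, and a lineage was compared only where it held at least 30 cells in a library. Levels are in CPM, the usual scaling of a gene's summed UMIs by the total of the same library or lineage. The ranges in parentheses after levels, shares and folds are exact 95% intervals, and they hold counting error alone.

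All 3 genes were far higher in the IMQ library. Saa3 had 543852 UMIs in the IMQ library and 1291 in the control library, or 3847 CPM (3837 to 3858) against 10.6 CPM (10.0 to 11.2), which was 362-fold (343 to 383) higher. Saa3 alone made up 0.385% of all IMQ UMIs and ranked number 31 among all genes there. Saa1 had 5361 UMIs in the IMQ library and 9 in the control library, at 37.9 and 0.0740 CPM, 513-fold (270 to 1122) higher. Saa2 had 2712 and 28 UMIs in the IMQ and control libraries, at 19.2 and 0.230 CPM, 83.3-fold (57.5 to 126) higher. Of the 16906 genes with at least 20 UMIs over both libraries, 13.1% were at least 2-fold higher in the IMQ library with an interval that excluded equality. All 3 Saa genes were among them, which follows from how they were chosen. Saa4 was barely detected, with 3 UMIs in the IMQ library and 0 in the control library.

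The share of cells with at least 1 UMI was also higher in the IMQ library for each gene. Saa3 was detected in 3283 IMQ cells, or 38.6% (37.6 to 39.7), and in 47 control cells, or 0.456% (0.336 to 0.607). Saa1 was detected in 7.64% of IMQ cells and 0.0680% of control cells, and Saa2 in 3.97% of IMQ cells and 0.0486% of control cells.

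The few control UMIs sat in very few cells, so the folds depended on single cells. In the control library 6 cells held 1038 of the 1291 Saa3 UMIs (80.4%), and 1 basal keratinocyte-like cell alone held 344, together with 44 UMIs of Lcn2, the siderophore-binding acute-phase gene. A single fibroblast-like cell held 23 of the 28 control Saa2 UMIs and no Saa1 or Saa3. Without the cell with most UMIs of the gene in each library, Saa3 was 491-fold (460 to 523) higher, Saa1 751-fold (345 to 2048) and Saa2 423-fold (181 to 1304). For Saa2 the control count without its top cell was 5 UMIs.

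Fibroblast-like cells carried nearly all of the signal. These matrix-producing cells of the dermis (10 markers, among them Col1a1, Dcn and Pdgfra, each detected in at least 10% of these cells) numbered 3765 in the IMQ library and 7007 in the control library. They held 97.2% of the Saa3 UMIs, 95.1% of the Saa1 UMIs and 96.2% of the Saa2 UMIs of the IMQ library. Saa3 stood at 9729 CPM (9703 to 9755) in IMQ and 13.2 CPM (12.3 to 14.0) in control fibroblast-like cells, 739-fold (693 to 788) higher. Saa1 stood at 93.8 CPM in IMQ and 0.112 CPM in control cells of this class, 840-fold (426 to 1946) higher, and Saa2 at 48.0 and 0.391 CPM, 123-fold (84.8 to 185) higher. Of 14780 genes measured in fibroblast-like cells, 12.5% were higher by the same rule and 3.92% lower, with 3 Saa genes higher and 0 lower. By the size of the log2 ratio Saa1 ranked number 2, Saa3 number 3 and Saa2 number 8 among those genes.

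In the IMQ library 56.4% (54.8 to 58.0) of fibroblast-like cells had a Saa3 UMI, 16.02% (14.9 to 17.2) a Saa1 UMI and 8.55% (7.68 to 9.49) a Saa2 UMI. In the control library the shares were 0.599%, 0.0856% and 0.0714%. With every cell thinned to 2000 UMIs, which removes the difference in depth and leaves out 136 shallower IMQ cells and 325 shallower control cells, the IMQ shares were 45.6%, 6.37% and 2.73%, and the control share of Saa3 was 0.314%. The median depth was 13414 UMIs per IMQ cell and 9472 UMIs per control cell of this class.

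**Figure D1:**
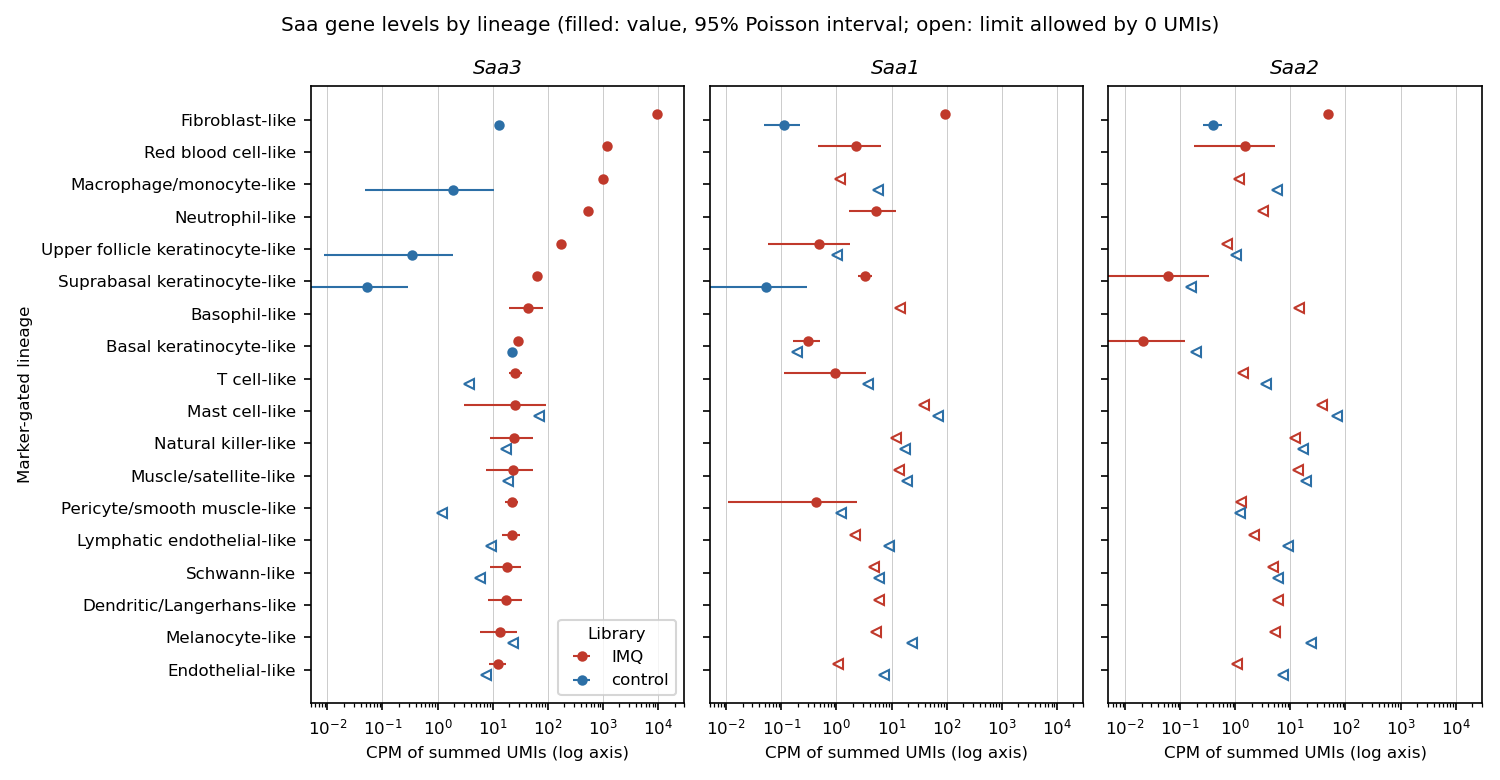
Level of Saa3, Saa1 and Saa2 in each marker-gated lineage, as CPM of summed UMIs on a log axis, with IMQ (red) above control (blue). Filled points have 95% Poisson intervals, and open triangles mark the limit that 3 counts would give where 0 UMIs were seen; a lineage with under 30 cells in a library has no point. In the IMQ library fibroblast-like cells lie highest for all 3 genes, at 9729 CPM for Saa3, whereas in the control library basal keratinocyte-like cells, at 22.0 CPM with 344 of 345 UMIs in 1 cell, lie above fibroblast-like cells for Saa3.

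Outside fibroblast-like cells, the level that free RNA in the droplets could give was estimated from fibroblast markers and set beside each lineage. Of the 18 lineages with enough IMQ cells, fibroblast-like cells included, 14 were under 2 times that level for Saa3. They had 6.25% to 28.9% of cells positive as sequenced, 2.44% to 9.09% after thinning, and median depths of 1382.5 to 31764 UMIs. These included T cell-like (25.8 CPM), pericyte-like (22.5 CPM), lymphatic endothelial-like (22.2 CPM) and endothelial-like cells (12.4 CPM). The estimated share of free RNA was highest in haemoglobin-gated (41.8%), pericyte-like (7.35%) and Schwann-like cells (5.16%). Fibroblast marker transcripts made in such cells, or present through mixing, would raise that estimate, so the comparison shows little there. From suprabasal keratinocyte-like cells downward the intervals of neighbours in the order of levels overlapped, so no order among them was read. Haemoglobin-gated barcodes stood second, at 1187 CPM (1130 to 1247), but 7 of 134 held 98.8% of those UMIs and carried a median of 64906 CPM of fibroblast markers, against 0 in the other 127.

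In keratinocyte-like cells, which form the epidermis, single cells held much of the Saa3. Upper follicle keratinocyte-like cells had 173 CPM of Saa3 in the IMQ library and 22.1 CPM without their top cell, which held 626 of 717 UMIs. Suprabasal keratinocyte-like cells had 64.3 CPM in the IMQ library and 0.0517 CPM in the control library. A single IMQ cell held 558 of the 1061 UMIs of that gate, which had 30.6 CPM without it. In basal keratinocyte-like cells the levels were 28.5 CPM in the IMQ and 22.0 CPM in the control library, and without the top cell of each library they were 16.6 and 0.0639 CPM. The basal, suprabasal and upper follicle gates held 8, 3 and 2 IMQ cells with at least 10 Saa3 UMIs. These carried fibroblast markers at medians of 11427, 34065 and 15482 CPM, against 109.9, 102 and 97.4 CPM in the other cells of the same gates.

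After fibroblast-like cells, the class with Saa3 furthest above the free RNA level, among those with at least 30 cells, was the macrophage/monocyte-like phagocytes. Their 397 IMQ cells had 1013 CPM (974 to 1052), 24.3 times that level, and 45.8% had a Saa3 UMI, or 36.5% after thinning. The 91 control cells had 1 UMI, or 1.94 CPM (0.0490 to 10.8), and the ratio was 523-fold (93.8 to 20674). Saa3 was the only one of the 3 genes with enough UMIs to be measured in this class, where 6.35% of 8060 genes were higher by the same rule. Saa1 and Saa2 had 0 UMIs in the 397 IMQ cells, which allows a share of up to 0.756% of cells with a UMI.

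Within this class 72 IMQ cells had at least 10 Saa3 UMIs and held 88.6% of the class total. Their median level of fibroblast markers was 137 CPM, against 162 CPM in the other 325 cells, and their own macrophage markers had a median of 16100 CPM against 10496 CPM. Cells with fewer than 2 UMIs of C1qa, C1qb and C1qc, the complement genes of resident macrophages, had 1327 CPM (1272 to 1383) of Saa3 over 297 cells. Cells with 2 or more such UMIs had 411 CPM (370 to 456) over 100 cells. Both groups were above the free RNA level of 41.6 CPM. The C1q-low cells also had 1808 CPM of the monocyte gene Chil3, against 218 CPM in the C1q-high cells.

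Neutrophil-like cells had 547 CPM (501 to 596) of Saa3 over 282 IMQ cells, with 17.2% positive after thinning, and the control library held only 5 such cells, with 0 UMIs. In this class 9 cells held 80.5% of the UMIs. Those 9 cells had a median of 47366 CPM of neutrophil markers, against 194165 CPM in the other 273, and 166 CPM of fibroblast markers, against 182 CPM. Only 2 barcodes of each library passed the adipocyte gate. The 2 IMQ barcodes held 707 Saa3, 13 Saa1 and 6 Saa2 UMIs, with 685 of the Saa3 UMIs in 1 of them. The 2 control barcodes held 0.

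Saa3 was spread very unevenly among fibroblast-like cells of the IMQ library. Of the 3765 cells, 1643 had 0 Saa3 UMIs, 340 had 1, 287 had 2 to 9, 570 had 10 to 99, 792 had at least 100 but under 1000, and 133 had 1000 or more, up to 3961. The 377 cells with most Saa3 (10%) held 70.0% of it. The 377 cells with most Saa1, ranked by Saa1 itself, held 95.6% of the Saa1 UMIs. All Saa2 UMIs lay in 322 cells. In the control library 6965 of 7007 cells had 0 Saa3 UMIs and 3 cells had 100 or more. IMQ fibroblast-like cells with at least 10 Saa3 UMIs had a median of 10781 CPM within the cell. The 3 control cells with 100 or more had 9821, 11465 and 6804 CPM. Control cells ranked 5 to 8 by Saa3 UMIs, also fibroblast-like, had 2030 to 4984 CPM.

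**Figure D2:**
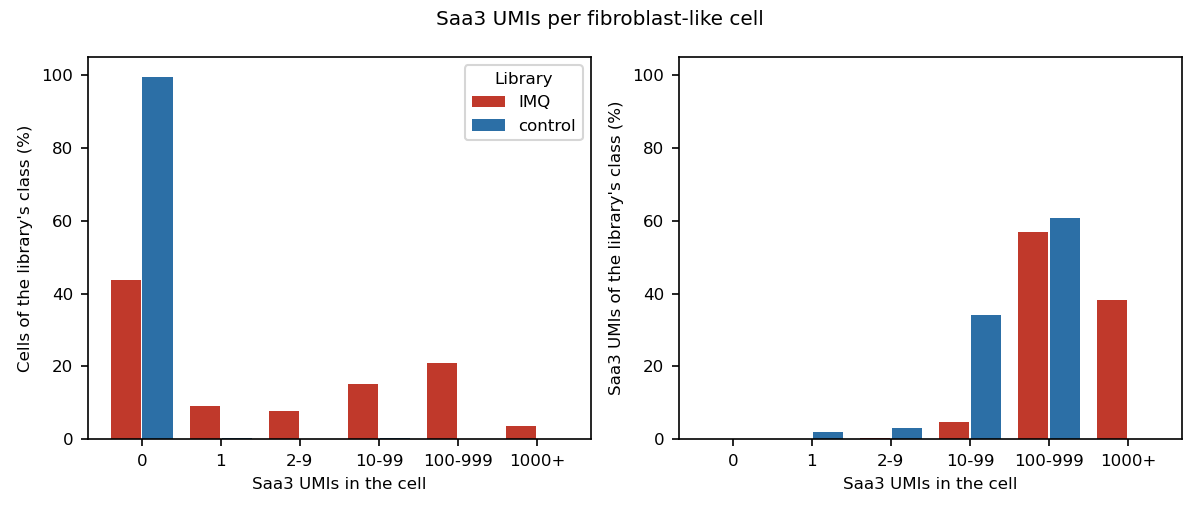
Fibroblast-like cells grouped by their Saa3 UMIs, IMQ (red) left of control (blue). The left panel gives the percent of each library's cells in a group and the right panel the percent of its Saa3 UMIs. In the IMQ library 43.6% of cells had 0 UMIs and the groups from 100 UMIs up held most UMIs, whereas 99.4% of control cells had 0.

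The minor genes were found mostly where Saa3 was high. Saa1 stood at 13.8 CPM (12.1 to 15.6) in IMQ fibroblast-like cells with 0 Saa3 UMIs, at 72.8 CPM in those with 10 to 99 and at 504 CPM (479 to 530) in those with 1000 or more. Saa2 stood at 2.28, 51.5 and 170 CPM in the same groups. The groups were not scaled for depth and differed in it, with medians of 10404, 16080 and 22147 UMIs per cell. Of 355 cells with at least 2 Saa1 UMIs, 328 had at least 2 Saa3 UMIs, while of 1782 cells with at least 2 Saa3 UMIs, 328 had at least 2 Saa1 UMIs (18.4%). At least 2 UMIs of both Saa1 and Saa2 were found in 71 cells, out of the 355 Saa1 cells and the 165 Saa2 cells (43.0%). Across the 3765 cells Pearson's r of log-scaled counts was 0.37 for Saa1 with Saa3, 0.27 for Saa2 with Saa3 and 0.27 for Saa1 with Saa2; cells share a library and differ in depth, so these are descriptions.

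**Figure D3:**
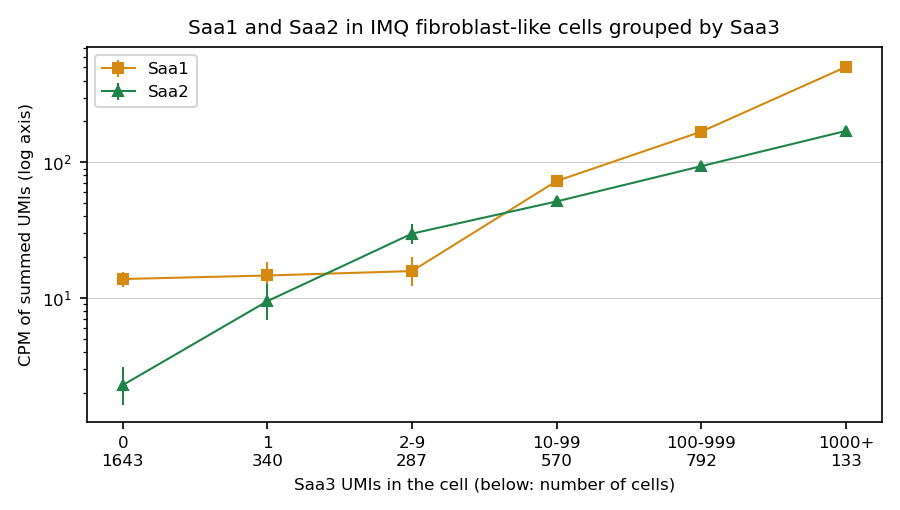
Saa1 (squares) and Saa2 (triangles) in IMQ fibroblast-like cells grouped by Saa3 UMIs per cell, as CPM of summed UMIs on a log axis with 95% Poisson intervals; cell numbers stand under each group. Saa1 climbs to 504 CPM and Saa2 to 170 CPM in the 133 cells with 1000 or more Saa3 UMIs.

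Fibroblast-like cells were clustered again without the Saa genes, which gave 16 subclusters, F0 to F15. Subcluster F2, led by Hp, Lcn2, Prg4 and Cxcl12, held 1396 IMQ cells and 5 control cells and contained 84.3% of all Saa3, 84.1% of all Saa1 and 52.0% of all Saa2 UMIs found in IMQ fibroblast-like cells. Its IMQ cells had 17308 CPM of Saa3, 167 CPM of Saa1 and 52.7 CPM of Saa2, and 90.3% had a Saa3 UMI. Its 5 control cells had 336 Saa3 UMIs, 217 and 119 of them in 2 cells. Nearly all of F2 came from 1 library, so a cell state and a library cannot be told apart there.

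Other subclusters show how far Saa3 reached among dermal fibroblasts. F0, which had 4 of the Coch fibroblast markers, held cells of both libraries and had 11928 CPM (11818 to 12038) of Saa3 in 323 IMQ cells and 26.0 CPM (21.2 to 31.5) in 518 control cells. F3, perivascular-like by 5 markers led by Gdf10, had 2692 CPM in 483 IMQ cells and 23.8 CPM in 380 control cells. F6, led by Thbs4 and Cilp, had 698 CPM in 275 IMQ cells and 0 UMIs in 274 control cells. F7, led by the cell cycle genes Ube2c and Top2a, had 783 CPM in 242 IMQ cells and 0 UMIs in 248 control cells, and 1 IMQ cell held 1633 of its 2568 UMIs. F1, with 5 of the Pi16 progenitor markers, was low, at 260 CPM (249 to 271) in 733 IMQ cells. It held only 13 control cells. Its IMQ cells had the chemokine gene Cxcl1 at 4262 CPM and Il6 at 498 CPM. The 1636 control cells of F14, also with 5 Pi16 progenitor markers, had 3561 CPM of Cxcl1 and 495 CPM of Il6. Saa3 in the IMQ library therefore varied by more than the counting intervals between subclusters of comparable depth, with 10730 median UMIs in F0 and 10563 in F1.

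**Figure D4:**
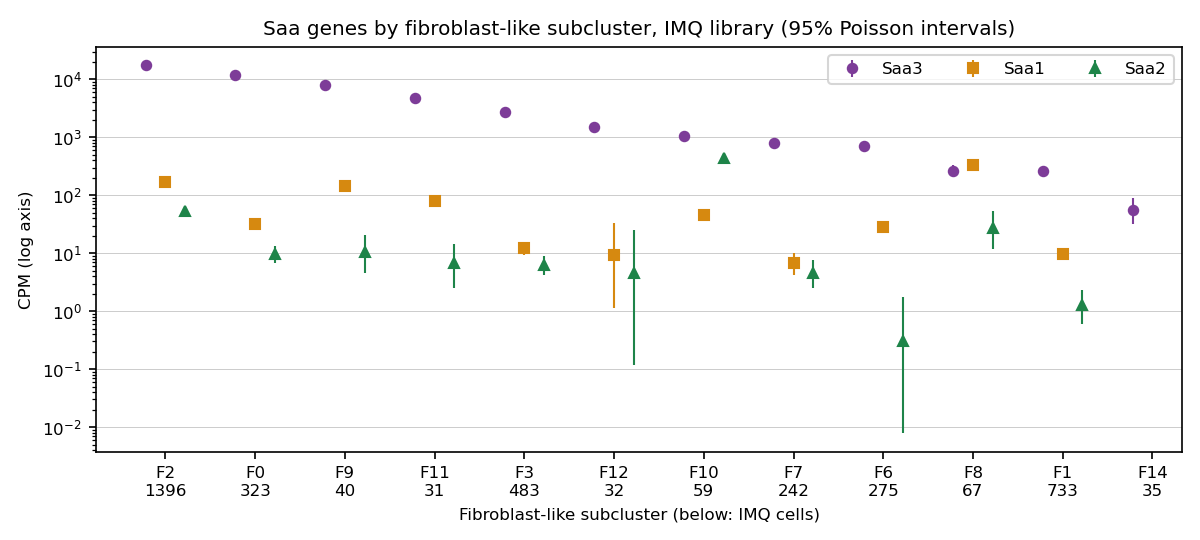
Saa3 (circles), Saa1 (squares) and Saa2 (triangles) in fibroblast-like subclusters with at least 30 IMQ cells, as CPM on a log axis with 95% Poisson intervals. F2 is highest for Saa3 at 17308 CPM, F10 is highest for Saa2 at 439 CPM, and in F8 the intervals of Saa1 (337 CPM) and Saa3 (266 CPM) overlap.

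The proportion of Saa1 to Saa2 changed sharply in dermal papilla-like cells. Dermal papilla cells are the fibroblasts at the base of the hair follicle that instruct its growth, and subcluster F10 had all 6 of their markers, with Corin at 48.6 CPM against 0.367 CPM in the other IMQ fibroblast-like cells and Rspo3 at 398 against 11.7 CPM. Its 59 IMQ cells had 1120 Saa2 UMIs, or 439 CPM, and 116 Saa1 UMIs, or 45.5 CPM, while its 49 control cells had 2 and 0. Saa1 made up 9.39% (7.82 to 11.1) of the Saa1 and Saa2 UMIs in F10 and 75.9% (74.8 to 77.1) in F2. These 59 cells, 1.57% of the IMQ class, held 42.9% of its Saa2 UMIs. Saa3 stood in these cells at 1051 CPM (1012 to 1092), with a median of 2 UMIs, against 9729 CPM in all IMQ fibroblast-like cells. Saa2 was found in 31 of the 59 cells, Saa1 in 19 and Saa3 in 48, with a top cell of 254 Saa2 UMIs. Without that cell F10 had 345 CPM of Saa2, and without its 5 top cells Saa1 made up 9.55%. F10 was the deepest subcluster, with a median of 43078 UMIs per IMQ cell, and 0 of its IMQ cells were called doublets. Only 1.29% of all IMQ cells were called, where 6.80% were expected, so 0 calls do not exclude doublets.

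In several other subclusters Saa1 was the more abundant of the pair in IMQ cells. Saa1 made up 77.4% (70.1 to 83.6) of their sum in F0, 65.9% (55.3 to 75.5) in F3 and 98.9% in F6, where 90 Saa1 UMIs stood against 1 Saa2 UMI. Those 90 UMIs lay in 11 of 275 cells, with 39 in 1 cell. In F7 Saa1 made up 59.5% (42.1 to 75.2), an interval that includes equal shares. The IMQ cells of F5, F13, F14 and F15 had 0 UMIs of either gene, but numbered only 9, 3, 35 and 8. In F13 that allows up to 148 CPM. F4, with 29 IMQ cells and a median of 1569 UMIs, had the highest Saa3 (26328 CPM, 25093 to 27608) and Saa1 (602 CPM) of all subclusters. Without its top cell for each gene these were 16117 and 32.5 CPM. In F8, 67 IMQ cells led by Spp1 and Ccl9 and with a median of only 2931 UMIs, Saa1 had 99 UMIs in 16 cells, at 337 CPM (274 to 410), and Saa3 had 78 UMIs in 8 cells, at 266 CPM (209.9 to 331). These intervals overlap, so no order between them was read. F9 and F11 were led by immune genes (Cd74, Lyz2) and keratin genes (Krt14, Krt79) and held most doublet calls, 14 of 40 and 15 of 31 IMQ cells, and had 8036 and 4730 CPM of Saa3; the part of doublets in those levels was not tested.

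Genes whose profile over lineages and libraries was most like that of the Saa genes were taken from 14545 genes over 32 profiles, by Pearson's r of log2(CPM + 1). For Saa3 they were Hp (r = 0.75), which encodes the haemoglobin-binding protein haptoglobin, Prg4 (0.71), which encodes lubricin, the calprotectin genes S100a8 and S100a9 (0.70 each), Saa1 (0.68), the protease inhibitor gene Slpi (0.65), Lrrc15 (0.65) and BC100530 (0.61). For Saa1 they were Saa2 (0.88) and Reg3g, Reg1, Cxcl5 and Cbln1 (0.86 each), and for Saa2 they were Cxcl5, Acat3, Cbln1, Reg3g and Reg1 (0.97 each). Saa3 itself came at number 23 for Saa1 and number 186 for Saa2. The profiles share 2 libraries and were not corrected for free RNA. For Saa3, 14 of the 18 IMQ profiles were under 2 times the free RNA level. The part of free RNA in its r values was not tested. Saa2 had 48.0 CPM in the profile of IMQ fibroblast-like cells and at most 1.48 CPM in any other. Saa1 had 93.8 CPM there and at most 5.27 CPM elsewhere. Their r values therefore rest mainly on that profile and do not show shared variation across lineages. Reg3g and Reg1, which encode secreted lectins, had 139 and 228 UMIs in IMQ fibroblast-like cells and 0 in control fibroblast-like cells, and Cxcl5, a neutrophil-attracting chemokine gene, had 587 and 13 UMIs.

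Other acute-phase genes were raised alongside the Saa genes in IMQ fibroblast-like cells, but not all of them. Of 15 measured list members, 10 were higher, 1 was lower and 4 were neither, beside 12.5% of all measured genes higher and 3.92% lower. Their median log2 ratio was 1.58, which is 1.29 above the median of 0.29 over all measured genes. The list was drawn up with earlier results of these libraries known. Hp had 420 CPM in IMQ and 0.279 CPM in control fibroblast-like cells, which made it the gene with the largest ratio in the class, and Lcn2 had 872 and 3.56 CPM. The metalloreductase gene Steap4 was 10.3-fold (9.66 to 10.9) higher and the haem carrier gene Hpx 10.0-fold (5.16 to 21.7) higher. The serine protease inhibitor gene Serpina3g was the lower one, at 0.736 CPM in IMQ and 1.59 CPM in control cells. The metallothionein genes Mt1 and Mt2 were neither, at 3284 and 1415 CPM in IMQ cells and 3530 and 1713 CPM in control cells. The liver-type acute-phase genes Crp, Apcs, Fga, Fgb and Fgg had at most 7 UMIs in this class in either library. Lcn2 differed from Saa3 in reach: lymphatic endothelial-like cells of the IMQ library had 1566 CPM of Lcn2, and neutrophil-like cells 5500 CPM, where Saa3 stood at 22.2 and 547 CPM. Lymphatic endothelial-like cells of the control library already had 670 CPM of Lcn2. It was detected in 89.5% of them, against 82.8% in the IMQ library.

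Genes for the cytokines known to induce SAA were found in several lineages of the IMQ library. T cell-like cells held 93.6% of the Il17a, 92.1% of the Il17f and 85.9% of the Il22 UMIs, and neutrophil-like and macrophage/monocyte-like cells held 33.1% and 44.5% of the Il1b UMIs. Fibroblast-like cells held 64.6% of the Il11 UMIs and 84.5% of the Il6 UMIs. Il6 stood at 338 CPM in IMQ and 189 CPM in control cells of that class, a 1.79-fold (1.75 to 1.83) difference below the 2-fold rule. That value pools all subclusters, and the direction was mixed within those with many cells of both libraries. Il6 was lower in IMQ than in control cells in F3 and F6, and higher in F0 and F7. The part of the mix of subclusters in the pooled difference was not tested. Basophil-like cells had the highest levels of Il6 (4346 CPM) and Osm (2356 CPM) in the IMQ library, in 46 cells. Within fibroblast-like cells 6 of 10 measured inducers were higher and 1 was lower, beside 12.5% and 3.92% of all genes. The list's log2 ratios had a median of 1.89, or 1.60 above that of all genes. Of those 6, Il22 (3.44 CPM in IMQ and 0.112 CPM in control cells) and Osm (57 UMIs in IMQ and 1 UMI in control cells) were over 3 times the free RNA level. Il1b, at 19.0 CPM in IMQ and 1.37 CPM in control cells, and Il17f, at 2.76 and 0.489 CPM, were below that. Lif was the lower one, at 9.15 CPM in IMQ and 18.4 CPM in control cells.

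Receptors for these cytokines, and the transcription factors that act on Saa genes, were counted in fibroblast-like cells by the same rule. Of 12 measured receptor genes 1 was higher and none lower, a share near the 12.5% and 3.92% of all genes. The log2 ratios of the list had a median of 0.48, or 0.19 above that of all genes. Lifr was 2.46-fold (2.25 to 2.70) higher, Osmr had 68.3 CPM in IMQ and 34.9 CPM in control cells, Il1r1 had 127 and 73.7 CPM, and Il10rb had 20.9 and 13.0 CPM. Tlr7, the receptor of imiquimod in mice, had 6 UMIs in IMQ and 4 UMIs in control fibroblast-like cells. Of 12 measured genes for transcription factors and their regulators none passed the rule in either direction, and with so few genes this is also near the 12.5% and 3.92% of all genes. Their median log2 ratio was 0.10, which becomes -0.19 relative to all genes. Cebpb had 941 CPM in IMQ and 929 CPM in control cells, Stat3 had 189.8 and 184 CPM, Cebpa 20.4 and 11.8 CPM and Nfkb1 241 and 325 CPM. Nfkbia, the NF-kB inhibitor gene, had 2613 and 1946 CPM, and Socs3, a feedback inhibitor of the interleukin-6 pathway, had 738 and 388 CPM. Transcript levels do not show the activity of these factors.

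Genes for proposed SAA receptors differed in the lineage that held them. Fpr2 was highest in neutrophil-like cells of the IMQ library at 210 CPM, with 49.1% of its UMIs, followed by macrophage/monocyte-like cells at 60.4 CPM. Tlr2 (261 and 189 CPM) and Cd14 (4500 and 2672 CPM) had the same pair of lineages at the top. Tlr4 had 86.2% of its UMIs in fibroblast-like cells, the class with most cells. By level, neutrophil-like cells stood first for Tlr4 and fibroblast-like cells second. Their intervals overlapped, so no order between them was read. Endothelial-like cells had the highest levels of Cd36 (133 CPM) and Scarb1 (280 CPM). In fibroblast-like cells 3 of 9 measured genes of this list were higher and none lower, beside 12.5% and 3.92% of all genes. The median of their log2 ratios was 0.67, against 0.29 for all genes. Cd14 had 12.0 CPM in IMQ and 4.43 CPM in control cells there, Cd36 1.68 and 0.796 CPM, Ager 0.810 and 1.55 CPM, and the scavenger receptor gene Scarb1 22.0 and 12.0 CPM. Among 8 lipoprotein partner genes 2 passed as higher and none as lower in fibroblast-like cells, beside the same 12.5% and 3.92%. Their median log2 ratio was 0.53, or 0.24 above that of all genes. Apoe was 2.21-fold (2.18 to 2.25) higher, at 688 CPM in IMQ and 311 CPM in control cells, and Apoa1, for the main protein of high-density lipoprotein, was higher with 18 and 5 UMIs. Abca1, which loads cholesterol onto that lipoprotein, had 106 and 72.5 CPM, Lrp1 871 and 606 CPM, and Lcat 2.08 and 2.61 CPM.

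**Figure D5:**
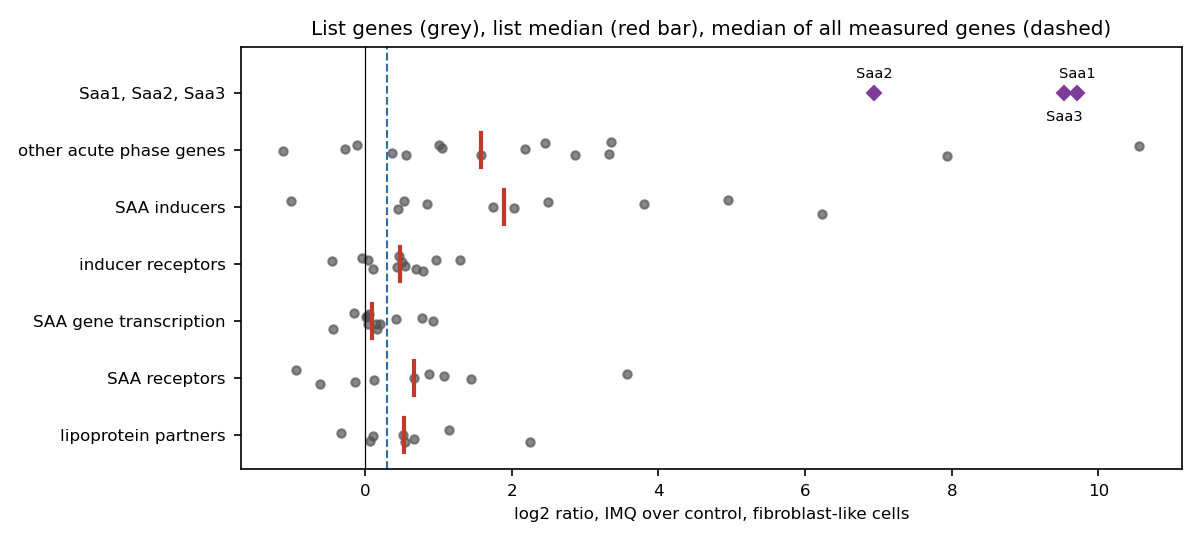
log2 ratio of IMQ over control in fibroblast-like cells for the 3 Saa genes (diamonds) and for each measured gene of 6 lists (grey points), with the list median as a red bar and the median of all measured genes (0.29) as a dashed line. The Saa genes lie at 6.94 to 9.71, the acute-phase list has its median at 1.58, and the transcription list has its median at 0.10.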

How the data were processed

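Each library was deposited by the authors as 1 matrix of unnormalised UMI counts (genes by barcodes). The submitters' processing notes name Cell Ranger 3.0.2, Seurat 2.0 and mm10, while per the file headers Cell Ranger 5.0.0 wrote the matrices. Other upstream settings are not given. No barcode had fewer than 500 UMIs. Cells with at least 200 genes and at most 10% mitochondrial UMIs were kept, which removed 558 and 357 IMQ barcodes and 192 and 368 control barcodes. Scrublet called 110 IMQ cells (1.29%) and 422 control cells (4.10%) doublets, where 6.80% and 8.24% were expected from the cell numbers. The called cells stayed in, and were removed in an alternative.

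The Saa genes, the gene lists, the markers and the alternatives were chosen with earlier results of these data known. Each cell was given the lineage with the highest mean of marker levels (log of depth-scaled counts, relative to the 95th percentile of cells with the marker), if that score was at least 0.2 and at least 0.1 above the best unrelated lineage. This gated 17800 cells, left 996 without a lineage, and put 557 near the margin. Of 127 lineage markers 124 were found under their symbol. Free RNA was taken as the median, over fibroblast markers (keratinocyte markers for fibroblast-like cells), of the level in the lineage over that in the library, times the gene's level in the library. Clusters came from Leiden in scanpy 1.11.5 (2000 variable genes, 30 components, 15 neighbours, resolution 1, or 0.5 for fibroblast-like cells) on both libraries together, without integration and without the Saa genes. Intervals are exact at 95% (Poisson, Clopper-Pearson, conditional binomial) and cover counting error only. Genes with 20 or more UMIs, libraries summed, count as measured, and were called at 2-fold with an interval excluding 1. Ratios and calls were tested on simulated Poisson counts, the model that the intervals assume. Those counts lack the spread between cells and animals, so the test covers counting error only. A share of 0 has a limit of 3 counts. Named genes were the Saa genes, up to 4 genes per list with the largest log2 ratio in fibroblast-like cells at 50 UMIs or more, pathway steps beside a result, and the 8 or 5 genes with the most similar profile. Mt1, Mt2, the liver-type genes and the genes named in subclusters were picked after their values were seen. Il36a, Il36g and Cebpd were not found under those symbols.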

Additional observations from a re-analysis of the deposited data

Results flagged for a closer look

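The barcodes that the filters left out also carried Saa3. In the IMQ library 915 such barcodes held 478 Saa3 UMIs, or 177 CPM (162 to 194), against 1 UMI, or 0.686 CPM (0.0174 to 3.82), in 560 control barcodes. That is a signal outside the cells compared, above its level in the control library, and it lies below the 3847 CPM of the IMQ cells kept. Saa1 and Saa2 had 2 and 1 UMIs in the left-out IMQ barcodes and 0 in those of the control library.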

How the results depend on the processing

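No paired analysis was possible because each group had 1 library, and for the same reason no replicate could be left out. No direction changed under any setting run for the log2 ratios of the 3 genes. Over all cells the log2 ratio of Saa2 (6.38) was 8.86 with at least 500 genes and at most 5% mitochondrial UMIs, 5.10 as a mean over cells, 8.72 without the top cell and 8.67 without top cell and doublets. For Saa3 (8.50) it was 8.34 relative to the median gene, 9.02 as a mean over cells, 8.94 without the top cell and 8.87 without top cell and doublets. In fibroblast-like cells Saa2 (6.94) had 9.41 with the stricter filters, 6.30 with the stricter gate, 5.57 as a mean over cells and 9.28 without the top cell, and Saa3 (9.53) had 9.68 with Leiden clusters, 9.23 relative to the median gene, 9.78 as a mean over cells and 9.94 without the top cell. With Leiden clusters, fibroblast-like cells held 87.6%, 52.9% and 85.7% of the Saa1, Saa2 and Saa3 UMIs. Then 44.8% of the Saa2 UMIs lay in a cluster that got no name and contained all 59 dermal papilla-like cells. Another cluster without a name, led by Coch, held 9.54% of the Saa3 and 4.33% of the Saa1 UMIs. Of its 500 IMQ cells 486 had passed the fibroblast gate. Without doublets the shares of gated fibroblast-like cells were 96.7% for Saa1 and 97.8% for Saa3. With at least 2 UMIs the positive fibroblast-like shares were 9.43%, 4.38% and 47.3%, and thinned 6.37%, 2.73% and 45.6%. The log2 ratio of Saa3 in C1q-low over C1q-high cells (1.69) was 1.86 without the top cells. Relative to the median gene, fibroblast-like cells had 1129 genes higher and 906 lower, in place of 1845 and 579. Settings on the top cell with doublets, the dermal papilla-like cells and C1q were chosen after seeing the data. With 1 library per group, depth limits only the counting error, and the spread between animals is unknown.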
